A study of Homo sapiens with 4 samples.

Results

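Gene-body peaks of m6A were examined in MDA-MB-231, a widely used cell line from a human breast cancer of the triple negative type. These are peaks in 1 block, under 1000 bases long, that lay inside the span of a nuclear protein-coding gene with their midpoint between 20% and 70% of that span, counted from the 5′ end. They numbered 2723 on 1893 genes, out of 20261 peaks in the whole list. The list came from m6A-seq, in which fragmented poly(A) RNA is pulled down with an antibody against N6-methyladenosine (IP) and compared with RNA that was not pulled down (input). Per the titles there were 2 IP and 2 input libraries, all labelled shNS, with no other genotype or treatment. The IP libraries are given as IP-YTHDC1 under treatment, although an antibody against m6A is named in their protocol. All 4 libraries had been combined by the authors into 1 list with 1 score per peak, so no spread between replicates and no test between samples could be had. The list gives no expression levels, so neither the cell line's marker genes nor the depth behind a peak could be checked.

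m6A is placed on nascent RNA in the nucleus by a methyltransferase complex built on METTL3 and METTL14, and it is read by YTH proteins such as YTHDC1. In mRNA it is known to be rich near stop codons and in unusually long internal exons, and sparse close to splice junctions, where exon junction complexes sit. A peak in 1 block inside the gene body therefore lies in 1 exon of the caller's gene model, and its length is a lower limit of the length of that exon.

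Each peak has 1 score from the authors' caller, treated below as a p-value for enrichment in IP over input, although it could be an FDR, since the header names neither. Peaks with smaller scores are called stronger, and a score of 0 is one too small to be stored. Shares are given with 95% Wilson intervals, which cover counting error only and treat peaks as independent. Differences between strands or sets below are descriptions of this list and were not tested.

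Reference sequence was at hand only around annotated gene starts, in windows from 250 bases before to 50 bases after the start, so that sequence could be read for only 75 of the 2723 peaks, and for these only in the bases that peak and window share. There were 53 overlaps with the window of the peak's own gene and 38 with that of another gene. The letters GGACT, a frequent context of m6A, stand on the strand of the gene in 25.3% of all 35116 windows of 300 bases and on the other strand in 25.3%. GGACT with 10 bases on either side lay wholly inside both peak and window at 8 places, in 7 genes. The 5 with the smallest peak scores are shown from 5′ to 3′ on the strand of the gene, with GGACT in capitals, as the matches that could be read here, and they do not stand for the other peaks. They are RefSeq sequence of GRCh38.p14.
ACOT2 (chr14:73569152-73569176, plus strand): ctgatcggctGGACTctggccttcc
TLNRD1 (chr15:81001918-81001942, plus strand): ccagcagaagGGACTttcctggcag
CTXN1 (chr19:7925200-7925224, minus strand): cgcggggccaGGACTgcgctcagga
PAX6 (chr11:31810055-31810079, minus strand): ccgagcgggaGGACTgtcagcttcc
RASSF1 (chr3:50337331-50337355, minus strand): cggacgcgcaGGACTgggggacggg
The peaks around these sites had scores of 7.9e-80 for ACOT2, a mitochondrial acyl-CoA thioesterase, 2.5e-33 for TLNRD1, 6.3e-25 for CTXN1, 1e-15 for PAX6, a paired-box transcription factor, and 1e-14 for RASSF1, a tumour suppressor of the Ras association family. A match of these letters is a description and not a mapped methylation site. In the peak of FZD8, a Wnt receptor, with a score of 4e-45, the mature miRNA hsa-miR-4683 lies whole and on the same strand (chr10:35641181-35641203), shown with its seed in capitals. This peak shared 151 bases with a peak of ENSG00000287528 on the other strand (3.6e-05).
hsa-miR-4683: uGGAGAUCcagugcucgcccgau

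Gene bodies held a minor part of the peaks. Of 12815 single-block peaks under 1000 bases inside the span of a protein-coding gene, 2723 (21.2%, 20.5 to 22.0%) had their midpoint in the window from 20% to 70%, 2035 (15.9%) lay before it and 8057 (62.9%) after it. The plot of peaks along the span shows a low plain between the peaks at both ends, with 216 peaks in the lowest 5% step of the window and 405 in the highest, next to its 3′ border. The final 5% of the span alone held 3708. The span includes introns, so these counts are not densities per exon.

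**Figure D1:**
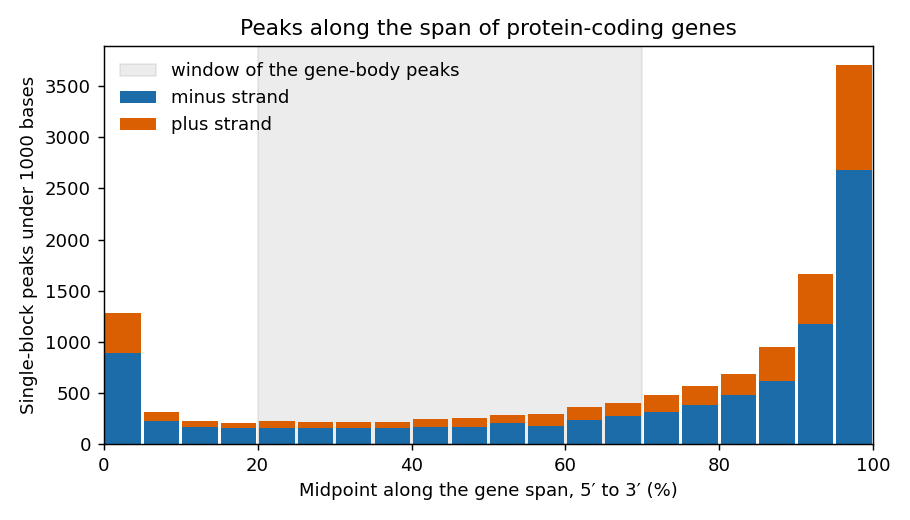
Number of single-block peaks under 1000 bases (vertical axis) by midpoint along the genomic span of their protein-coding gene, 5′ to 3′, in steps of 5% (horizontal axis), with minus-strand peaks in blue and plus-strand peaks stacked in orange. Within the shaded window each step holds from 216 to 405 peaks, against 1278 in the first step and 3708 in the last.

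The share of peaks in the gene body was larger in short genes. Among genes spanning under 5 kb it was 43.1% (40.2 to 46.1%), from 5 to 20 kb 24.4% (23.0 to 25.9%), from 20 to 100 kb 18.0% (17.0 to 19.0%) and at 100 kb or more 15.7% (14.4 to 17.0%). The genes of the 2723 peaks had a median span of 22931 bases, with quartiles of 7629 and 69100. In short genes a peak takes up much of the gene: the median peak covered 9.08% of the span under 5 kb and 0.106% at 100 kb or more. In all, 238 peaks (8.74%) covered at least 10% of their gene, none of which spanned more than 7537 bases. Peaks in genes under 5 kb also had smaller scores, with a median of 6.8e-10 against 5e-07, 4e-07 and 5.4e-06 in the longer classes.

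The threshold values fall in the following genes. The shortest peak in the window that missed the length limit, of ZFP36L2, had 1013 bases (1e-267). At the lower border the nearest were peaks of CIC at 20.002% (2.6e-05) and, just outside, ZNF827 at 19.998% (4.3e-09). At the upper border they were CCNL1 at 69.974% (1e-170) and, just outside, KDM6B at 70.007% (1e-17). The length limit left out 107 peaks of the window, 101 of them on the minus strand.

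Most gene-body peaks were on the minus strand. There were 1855 on 1256 minus-strand genes and 868 on 637 plus-strand genes, so that the minus strand held 68.1% (66.3 to 69.8%) of the peaks and 66.3% (64.2 to 68.4%) of the genes. The share was 70.9% (68.9 to 72.8%) for peaks before the window and 70.2% (69.2 to 71.2%) for peaks after it. Over all peaks of the list it was 72.3% (71.7 to 72.9%), so the minus-strand excess was not particular to gene bodies. Among genes with any peak inside the span, 23.7% of 2688 plus-strand and 24.6% of 5108 minus-strand genes had a gene-body peak. All 23 chromosomes with gene-body peaks had more on the minus strand, from 51.1% on chromosome 16 (69 of 135) to 80.0% on chromosome 18 (40 of 50). Minus-strand genes were the longer ones, with a median span of 26724 bases over their peaks against 16662 on the plus strand. The minus-strand share rose with span, from 59.1% (54.6 to 63.5%) under 5 kb and 62.1% from 5 to 20 kb to 73.4% from 20 to 100 kb and 76.5% (72.4 to 80.1%) at 100 kb or more. Single-block peaks outside the window went from 65.1% to 73.2% over the same classes, a smaller difference, and their intervals overlapped those of gene-body peaks in each class but 5 to 20 kb.

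**Figure D2:**
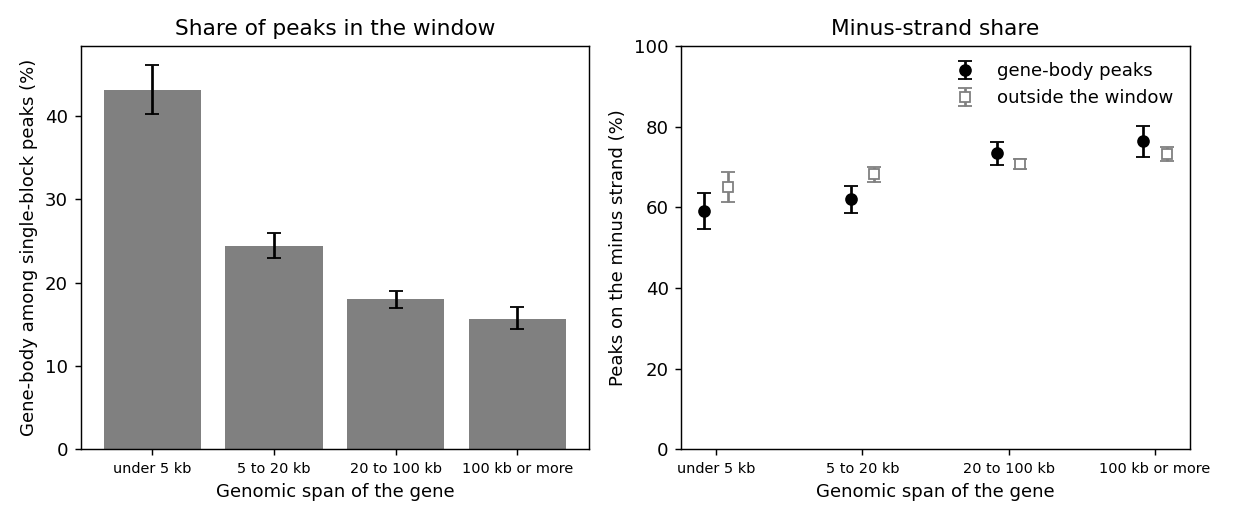
Left, share of single-block peaks under 1000 bases whose midpoint lies in the gene-body window; right, share of peaks on the minus strand for gene-body peaks (filled) and peaks outside the window (open), both by genomic span of the gene with 95% Wilson intervals. The gene-body share goes from 43.1% under 5 kb to 15.7% at 100 kb or more, and the minus-strand share of gene-body peaks from 59.1% to 76.5%.

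Gene-body peaks were stronger on the minus strand. Their median score was 6e-09 there (quartiles 2e-27 and 7.6e-05) and 2.6e-05 on the plus strand (1.6e-08 and 0.00048). A score at or under the median of the whole list, which 50.0% of all peaks reach by construction, was found for 995 minus-strand peaks (53.6%, 51.4 to 55.9%) and 237 plus-strand peaks (27.3%, 24.4 to 30.4%), or 45.2% of all gene-body peaks. For single-block peaks after the window these shares were 59.7% and 29.1%, and before it 44.9% and 25.5%. Gene-body peaks thus stood between the sets at the ends on the minus strand. On the plus strand their interval overlapped those of both sets, 22.2 to 29.2% before the window and 27.3 to 30.9% after it. A score of 0, listed for 2.30% of all peaks, was listed for 38 minus-strand and 2 plus-strand gene-body peaks (1.47% together). The minus-strand share climbed with strength. It went from 57.7% among scores above the median to 86.2% at a −log10 score of 20 or more (569 and 91 peaks). At 100 or more it was 89.0% (138 and 17 peaks). The whole list leaned the same way. Its median was reached by 56.7% of all minus-strand peaks and 32.6% of all plus-strand peaks. Scores of 0 were listed for 428 and 38 of these. The link between strand and strength was thus not particular to gene bodies.

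On the plus strand, ZACN was among the peaks with the smallest scores, with 388 bases on chromosome 17 (76081016 to 76081403, score 0). The whole ZACN peak lay under a minus-strand peak of EXOC7, also listed at 0, so which gene the reads came from cannot be told apart. Of those that followed, TCEAL9 had 1e-294, PNN 1e-293 and PRPF38B 1e-288. PNN and PRPF38B encode proteins of RNA splicing. SNRNP35, a subunit of the minor spliceosome, had 1e-232, MARCKS, a membrane-bound actin regulator, 1e-222, and NR2F2, an orphan nuclear receptor, 1e-203. Of these, only ZACN overlapped a peak on the opposite strand. Their spans ran from 1957 bases for TCEAL9 to 15016 for SNRNP35, all under the median span of gene-body peaks.

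On the minus strand the first 8 were all listed at 0 and were ordered by length. JUND and JUN, subunits of the AP-1 transcription factor, had peaks of 980 bases (chromosome 19, 18280050 to 18281029) and 897 bases (chromosome 1, 58781448 to 58782344). JUND is listed again with a peak of 471 bases inside the first, also at 0. RTL8A, a gene derived from a retrotransposon, had 971 bases in a span of 1204. RTL8A has close copies, of which RTL8C on the plus strand carried gene-body peaks with scores of 1e-14 and 6.3e-65, and the alignment allowed reads with several places in the genome, so the values of these copies are uncertain. IRF2BP2, a transcriptional corepressor, had 898 bases, of which 630 lay under a plus-strand peak of ENSG00000228830 listed at 0. PI4KB, a phosphatidylinositol kinase, had 870 bases, as did LDOC1. IER5L had 865 bases, 367 of them shared with a peak of IER5L-AS1 at 0. AHNAK, a giant scaffold protein, had 841 bases. JUND, JUN, RTL8A, LDOC1 and IER5L span under 5 kb, and PI4KB (35919 bases) and AHNAK (113263 bases) exceed the median span. The JUND peak of 980 bases, LDOC1 and ZACN come from the end of the list, a second run through the chromosomes that holds 126 of the 2723 peaks.

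**Figure D3:**
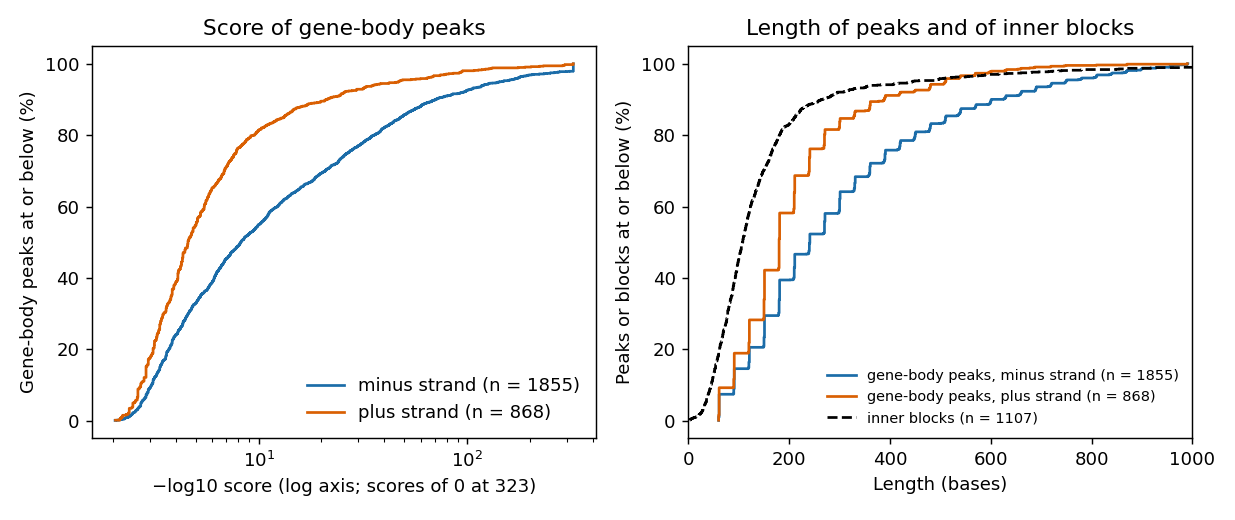
Cumulative share of gene-body peaks by −log10 score (left, log axis, scores of 0 placed at 323) and by length in bases (right), for 1855 minus-strand peaks in blue and 868 plus-strand peaks in orange; the dashed line gives 1107 inner blocks of peaks that run over 3 or more blocks. The medians of length are 241 and 180 bases for the strands and 108 bases for inner blocks.

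An exon map was not used here, so the coding or UTR class of each peak was not analysed and host exon length was approached from the list alone. The median length of gene-body peaks was 211 bases, 241 on the minus strand (quartiles 151 and 391) and 180 on the plus strand (121 and 241). The host exon had thus to be at least 200 bases long for 1487 peaks (54.6%), at least 400 for 526 (19.3%) and at least 600 for 218 (8.01%). These shares were 56.5%, 19.6% and 7.94% for single-block peaks after the window, and 43.3%, 12.4% and 4.86% before it. By strand, a host exon of at least 400 bases was needed for 449 minus-strand peaks (24.2%, 22.3 to 26.2%) and 77 plus-strand peaks (8.87%, 7.16 to 10.9%). After the window 24.5% of minus-strand and 7.88% of plus-strand single-block peaks had this length, and before it 14.8% and 6.59%. The strand difference in length was thus not particular to gene bodies. For comparison, peaks that run over 3 or more blocks have inner blocks, bounded by a gap on both sides. Among 1107 such blocks the median was 108 bases and the 90th percentile 263. That percentile, taken over both strands, was exceeded by 1092 gene-body peaks (40.1%, 38.3 to 42.0%), 47.7% on the minus and 23.8% on the plus strand, and by 38.1% of single-block peaks outside the window. Inner blocks differed between strands in the same direction, with a 90th percentile of 284 bases on the minus and 190 on the plus strand. Of minus-strand inner blocks 6.95% had at least 400 bases, and of plus-strand ones 2.05%. Not every inner block is a whole exon, since 36 of the 1107 were shorter than 30 bases and the smallest had 3, and they are not a sample of all exons.

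The caller moves its window in steps of 30 bases along the joined exons of a gene, and 2263 peaks (83.1%) had a length divisible by 30, or by 30 once 1 base was taken off. This step gives a further view of the host exon. If no intron lies between neighbouring peaks of a gene, their starts would differ by about a multiple of 30 bases. An intron shifts one against the other, and 10% of shifts would fall on the step within 1 base. The step was not exact for every peak, with lengths such as 119 and 238 bases, so pairs in 1 exon can also fall off it. In the first part of the list there were 768 neighbouring pairs of gene-body peaks on the same gene. Among 576 pairs less than 1000 bases apart, 364 (63.2%, 59.2 to 67.0%) were on the step. Of 106 pairs from 1000 to 5000 bases apart 19 were (17.9%, 11.8 to 26.3%), and of 86 pairs further apart 13 (15.1%, 9.05 to 24.2%). The shares for close pairs were 60.6% (53.3 to 67.4%) on the plus strand and 64.4% (59.6 to 69.0%) on the minus strand. Close neighbours were thus on the step more often than distant ones on both strands.

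Peaks joined by the step with gaps under 1000 bases formed 263 stretches on 249 genes, with a median of 840 bases from the first start to the last end. A stretch of at least 1000 bases was found 94 times and of at least 2000 bases 13 times, of which 1 was on the plus strand. The longest was AHNAK, where 10 peaks formed a stretch of 7319 bases (chromosome 11, 62516832 to 62524150). GOLGB1, a giant golgin of the Golgi membrane, came next with 7 peaks over 4315 bases, then PRR14L with 5 over 3837, TSHZ3, a zinc finger homeobox factor, with 7 over 3600, and BOD1L1, a protein of replication fork protection, with 6 over 2790. On the plus strand ZNF778 had 4 peaks over 2609 bases and FOXC1, a forkhead transcription factor, 3 over 1588. These stretches are not annotated exons, since some pairs fall on the step with an intron between them. Pairs in 1 exon that fall off the step are missed.

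Most genes had 1 gene-body peak. This was so for 1368 of the 1893 genes (72.3%), 465 had 2 or 3 and 60 (3.17%) had 4 or more, 50 of them on the minus strand. The mean was 1.48 ± 1.03 peaks on minus-strand genes and 1.36 ± 0.728 on plus-strand genes (SD over 1256 and 637 genes). PCLO, a giant presynaptic scaffold, had 12 on chromosome 7, AHNAK 10, GOLGB1 and TMEM200C 9 each, and BOD1L1, EPPK1 and ITPRIPL1 8 each. TMEM200C, EPPK1 and ITPRIPL1 appear in both parts of the list at almost the same places. After overlapping records were merged they had 5, 4 and 4, and ELFN2 and TSHZ3 were among those that stood next, with 7 each. Merging was done within each gene and reduced the 2723 peaks to 2690. Only 2354 of the 2723 (86.4%) lay inside the span of 1 gene, and a peak in a shared span can be listed under each of the genes.

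The genes with the most peaks differed in strength. From 5′ to 3′, the 10 peaks of AHNAK had scores of 5e-53, 1e-278, 1.6e-84, 1e-23, 1e-178, 2.5e-54, 6.3e-35, 0, 1e-204 and 1e-251, so all of them lay far under the list median of 5.2e-08. The group did not end at the window, since AHNAK had 12 more peaks before 20% of its span. The 12 peaks of PCLO were weaker, from 0.0019 to 5e-15, in separate groups within 51306 bases. GOLGB1 ranged from 0.00087 to 2e-71, BOD1L1 from 0.0019 to 7.9e-49, TSHZ3 from 0.00089 to 2e-45 and ELFN2 from 0.00072 to 2.5e-46. The strongest peak of GOLGB1, with 1.3e-73, was not one of its gene-body peaks, whereas in AHNAK, PCLO, BOD1L1, TSHZ3 and ELFN2 a gene-body peak had the smallest score of the gene, ties included. In ELFN2, 115 bases of that peak lay under a peak of ENSG00000272694 on the other strand (1.3e-07).

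**Figure D4:**
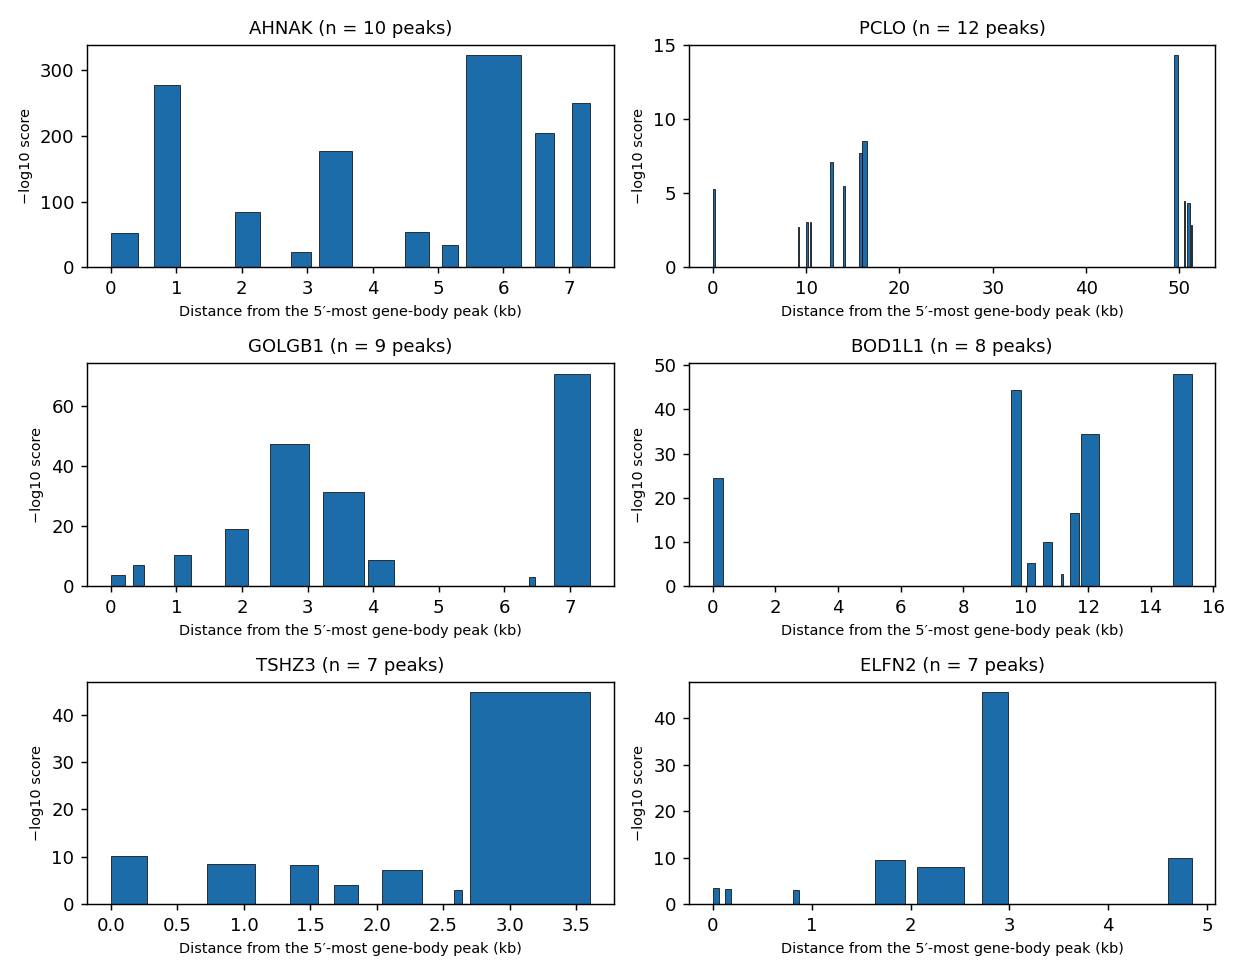
Gene-body peaks of 6 minus-strand genes, drawn as bars at their distance in kb from the 5′-most gene-body peak, with the −log10 score as height (a score of 0 at 323) and the peak length as width. AHNAK shows 10 peaks within 7319 bases, and the 12 peaks of PCLO fall in separate groups within 51306 bases; the vertical axes differ.

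For 692 of the 1893 genes (36.6%, 34.4 to 38.8%) gene-body peaks were the only peaks inside the span. Of plus-strand genes this held for 54.9% (51.1 to 58.8%), and of minus-strand genes for 27.2% (24.8 to 29.8%). Plus-strand genes had fewer peaks per gene over the whole list too, with 5613 peaks on 3516 genes against 14648 on 6624 minus-strand genes. How far this accounts for the difference was not tested. A peak after the window was listed for 716 minus-strand genes (57.0%) and 194 plus-strand genes (30.5%), and a peak before it for 314 minus-strand and 107 plus-strand genes. Among the 1201 genes that also had another peak, a gene-body peak had the smallest score, ties included, in 475 (39.6%, 36.8 to 42.3%), 38.0% on the minus and 44.6% on the plus strand. The depth behind each gene is not in the list, and its part in this difference was not tested.

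The gene types were described by 9 lists, as the share of genes with a gene-body peak among genes with any peak inside the span, which was 24.3% (23.3 to 25.2%) over all 7796 protein-coding genes. The lists overlap, with AHNAK, KMT2D and BRCA1 in more than 1. Of 26 genes chosen for a long internal exon 13 had one (50.0%, 32.1 to 67.9%), with 55 peaks, 36 of them (65.5%) at or under the list median. AHNAK alone gave 10 of the 55 peaks, all at or under that median. Beside AHNAK (score 0), the genes of this list were led by KMT2D (1e-193), BOD1L1 (7.9e-49) and PRR14L (2.5e-39). Of 35 chromatin regulators 15 had one (42.9%, 28.0 to 59.1%). KMT2D, a histone H3 lysine 4 methyltransferase, had 6 peaks, the strongest 960 bases long. SETD2, which methylates histone H3 lysine 36, also had 6, from 0.0004 to 1e-179, and ATRX, a chromatin remodeller, had 5 with a smallest score of 1.6e-31. CHD8, another remodeller, had 2 (3.2e-24).

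Of 15 DNA damage response genes 8 had a gene-body peak (53.3%, 30.1 to 75.2%), 5 of the 12 on the minus strand and all 3 on the plus strand. TP53BP1, which acts in double-strand break repair, had 1 peak of 720 bases (1.6e-73). BRCA1, known for a large central coding exon, had 4 within 1886 bases (chromosome 17, 43092548 to 43094433), with scores of 4.8e-07, 8.9e-07, 0.00034 and 7.9e-19. MSH6, a mismatch repair protein, had 3 (1.6e-14) and FANCA 1 (5e-11). Of 20 giant cytoskeletal and scaffold genes 6 had one (14.5 to 51.9%), all among the 12 on the minus strand and none of the 8 on the plus strand. FLNA, filamin A, had 1 (1.3e-99), AHNAK2 had 5 (4e-20), all in the second part of the list, and AHNAK and PCLO led by number.

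C2H2 zinc finger genes, taken by the start of their symbol, formed the largest list. Of 361 with a peak, 116 had one in the gene body (32.1%, 27.5 to 37.1%), 34.7% of plus-strand and 30.8% of minus-strand genes. The strongest were ZNFX1 (1e-174), which shares the letters of the symbol but encodes a helicase-type protein, ZNF500 (1e-161), ZNF394 (1e-148) and ZNF747 (1e-140). Matrix and adhesion genes had one in 9 of 57 (15.8%, 8.54 to 27.4%), led by PCDH1, a protocadherin (7.9e-48), PCDH20 (2.5e-19), ITGA7 (1.7e-07) and CDH8 (6e-05). Ribosomal protein genes, whose exons are short, had one in 4 of 28 (14.3%, 5.70 to 31.5%). Of these 4, RPS6KL1 (1.3e-14) and RPS6KA2 (0.00017) are kinase-type genes caught by their symbol. Without such genes it was 2 of 23 (8.70%), namely RPL13 (8.1e-06) and RPS15 (7.9e-05), both above the list median.

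**Figure D5:**
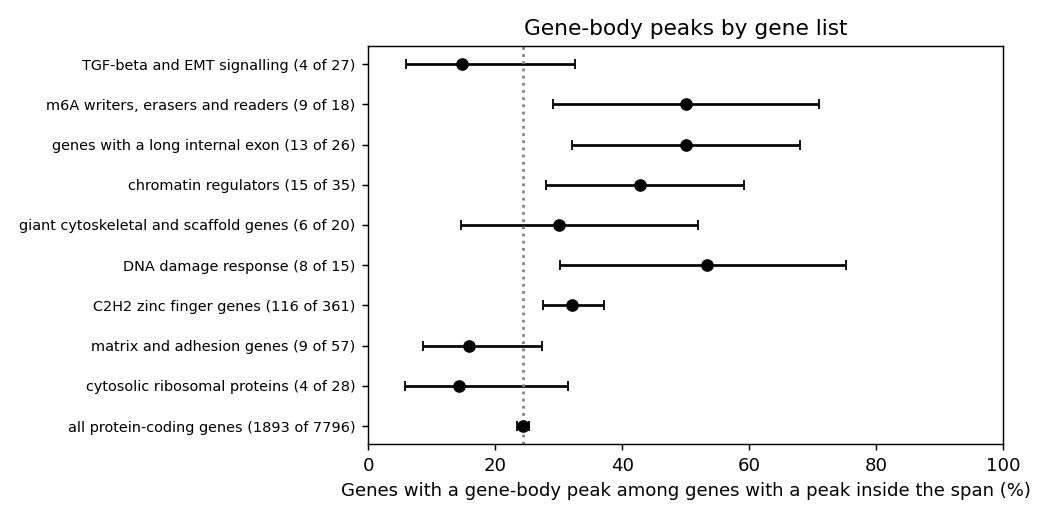
Share of genes with a gene-body peak among genes with any peak inside the span, by gene list (points, with 95% Wilson intervals); numbers in brackets are genes. The dotted line marks all protein-coding genes at 24.3%, and the lists run from 14.3% for ribosomal proteins to 53.3% for DNA damage response.

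Of the m6A machinery 9 of 18 genes with a peak had one in the gene body (50.0%, 29.03 to 70.97%), with 16 peaks of which 6 (37.5%) were at or under the list median. Among the writer complex, VIRMA, its large scaffold subunit, had 3 peaks with a smallest score of 1e-107, METTL3, the catalytic subunit, 1 of 300 bases (2.5e-45) and the adaptor RBM15B 2, the longer with 990 bases (2.5e-57). RBM15, its relative, had 4 weaker peaks, from 0.0032 to 1.5e-07. Among readers, RBMX had 1 of 270 bases (1e-118), YTHDF2 1 of 627 bases (6.3e-15), IGF2BP3 1 (3.8e-07) and YTHDF3 2 (0.00012 and 0.00031). The only peak of YTHDC1 in the gene body was 61 bases long (0.0014), close to the shortest length in the list.

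TGF-β and EMT genes had a gene-body peak in 4 of 27 (14.8%, 5.92 to 32.5%), with 8 peaks, 5 of them at or under the list median. SNAI2, an EMT transcription factor, had 2 on chromosome 8, of 568 bases (1e-105) and 597 bases (1.3e-16). SMAD9 had 2, of 301 bases (2e-62) and 180 bases (4.2e-07), and LTBP3, which binds latent TGF-β, had 3, from 0.0005 to 7.9e-30. SMAD1 had 1 (4e-07), of which 227 bases lay under a peak of SMAD1-AS1 with the same score. SMAD3, the TGF-β signal transducer that the study followed, had no gene-body peak, but 3 single-block peaks near its 3′ end, at 96.5%, 96.9% and 99.8% of the span, with scores of 0.0015, 1.3e-14 and 6e-07.

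Few gene-body peaks overlapped a peak on the other strand. At least 1 base was shared by 58 plus-strand gene-body peaks (6.68%, 5.20 to 8.54%) and 78 minus-strand ones (4.20%, 3.38 to 5.22%), or 4.99% of all, against 10.0% of all peaks. Single-block peaks before the window had 6.39% (5.41 to 7.54%), an interval that overlaps that of gene-body peaks (4.24 to 5.88%), and those after it 7.02% (6.49 to 7.60%). These 136 peaks formed 142 pairs, in which the partner was a protein-coding gene in 63, a long non-coding RNA gene in 24, a pseudogene in 4 and a gene without a RefSeq match in 51. In no pair were both peaks gene-body peaks. In 105 pairs the shared bases made up 90% or more of the shorter peak, and in 68 of these (64.8%, 55.3 to 73.2%) both scores differed by at most 10% on the log10 scale, 21 of them not at all. JMJD8 and STUB1 were a pair of protein-coding genes with both scores at 0, and DDIT4, a stress-induced inhibitor of mTOR signalling, at 1e-130 shared 468 bases with ENSG00000269926 at 1e-131. The library kit keeps the strand of the RNA, but whether the peak caller used it is not given in the sources used here, so for such pairs the gene of origin cannot be told apart.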

How the data were processed

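m6A-seq libraries (2 IP, 2 input) had been aligned by the authors with STAR to GENCODE v33 transcripts (hg38 per the labels), and peaks were called with exomePeak at default settings, giving 1 list for all libraries. The deposited list gives, per peak, coordinates, blocks and 1 score, taken as a p-value. Fold enrichment and reads per peak were not used here.

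Gene symbols were matched by Ensembl ID without version (10103 of 10140 IDs), and biotypes and spans by symbol from RefSeq GRCh38.p14. Position was the peak midpoint along this span. Coordinates are counted from 1. Overlap needed at least 1 shared base of blocks. Scripts ran in Python 3.11.15 with pandas 2.3.3 and scipy 1.17.1, and overlap and selection were tested on simulated data.

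The peaks, the gene lists and the tables shown were chosen with earlier results of these data known. Genes were named by rule: the 8 smallest scores per strand, the genes with the most peaks, all TGF-β, EMT and m6A machinery genes with a gene-body peak, the 4 smallest scores of each other list and the peaks at each limit; some genes that this rule names are not reported here. Genes in the sequence, stretch and opposite-strand paragraphs, the merged ranking and RTL8C were added after their values were seen. Searches for the m6A motif over whole peaks, exon length and UTR class need a genome and exon map and were not run.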

Additional observations from a re-analysis of the deposited data

How the results depend on the processing

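Of 8 alternatives, keeping only peaks with scores no larger than the median of the list left 1232 peaks on 997 genes with a minus-strand share of 80.8%, medians of 6.3e-15 (plus) and 2.5e-25 (minus) by construction, and 5.23% of minus-strand peaks overlapping the other strand. The window from 30 to 60% left 1512 peaks on 1139 genes. A length under 500 gave a minus-strand share of 65.4% and a minus-strand median of 4.2e-07. Genes of at least 10 kb gave 71.2% and medians of 4.9e-05 (plus) and 4.2e-08 (minus). Inside the span of 1 gene only, the overlap fell to 3.05% (plus) and 2.25% (minus). Part of this fall is built in, because the setting drops peaks that also lie in the span of another gene. Merging, dropping the second run through the chromosomes and dropping opposite-strand overlaps kept these values within their intervals or within 1.5 times. Beyond fewer peaks and what a setting builds in, the cause was not tested. The unknown depth limits what an absent peak means. No paired analysis was possible because libraries had been pooled into 1 score for each peak, and no replicate could be left out. Alternatives on transcript model, exon assignment and motif were not run. The ribosomal list without kinase genes was chosen after seeing the data.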
